A study of Mus musculus with 9 samples.

Results

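Dynein arms are the motors that bend the axoneme of motile cilia and of the sperm flagellum. They are built in the cytoplasm, where a set of dedicated factors works with HSP90-type chaperones to fold the heavy chains and join them to the intermediate and light chains, and only then are they carried into the flagellum. Loss of many of these factors leaves axonemes short of outer arms, inner arms or both, and in humans it can cause primary ciliary dyskinesia, often with infertile males. The genes described here are 10 listed as assembly factors, not all of them dedicated to dynein: Dnaaf1, Dnaaf2, Dnaaf3, Dnaaf5, Lrrc6, Zmynd10, Spag1, Pih1d1, Pih1d2 and Pih1d3. They were found in the count table by their Ensembl gene ID through the names and synonyms of GENCODE M21, all 10 were among its 23074 genes, and all 10 passed the filter on low counts that left 15613 genes to be tested.

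The libraries were made from whole decapsulated testes of mice aged postnatal day 29 to 30, with 1 library from each of 5 wild type and 4 Rfx2-/- animals, all on a mixed C57BL/6, 129/Sv and FVB/N background. The gene deleted encodes RFX2, 1 of the RFX proteins that recognise the X-box, a promoter element common among ciliary genes. The Rfx2-/- mice lack an exon that encodes most of the DNA-binding domain, removed in the whole animal by a ubiquitous Cre, and the study describes a mixed background line that also carried a neomycin cassette. Their spermatids arrest as round cells before a flagellum grows. The tissue is bulk, so fewer cells of a type and less RNA per cell cannot be told apart in any value below.

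Between 13574764 and 15193330 reads were counted in 8 of the libraries and 28800855 in Rfx2-/- replicate 1. Levels are given as CPM, counts scaled to a common library total, after TMM scaling, a correction for library composition. Rfx2 itself stood at 560, 552, 471, 541 and 624 CPM in wild type replicates 1 to 5 and at 199, 61.5, 151 and 173 CPM in Rfx2-/- replicates 1 to 4. The groups did not overlap, and the knockout mean was 26.6% of wild type (log2 fold change -1.91 ± 0.28 SE, edgeR adjusted p = 7.81e-04). Reads from the exons that remain are still counted, so this value need not reach 0. Rfx2-/- replicate 2 stood apart by gene length, with each library set against the mean of the others of its genotype on the log2 scale. Genes under 2 kb of exon lay a median of 0.611 above that mean and genes over 8 kb a median of 0.93 below it. The same medians were -0.374 and 0.526 in Rfx2-/- replicate 1, whose reference includes replicate 2. Values that replicate 2 moves most are given with and without it.

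Zmynd10 was the single factor that was called, a call being an adjusted p at or under 0.01 and a change over 2-fold. It fell in the knockout to 38.3% of its wild type level. Dnaaf1, Dnaaf5 and Dnaaf2 fell to between 53.2% and 57.8% of wild type, past an adjusted p of 0.05 but short of 2-fold. The other 6 did not pass: Pih1d3 and Pih1d2 had lower means, Lrrc6 and Dnaaf3 differed less, and the means of Pih1d1 and Spag1 were above wild type. In counts, 1 of 10 was called lower, against 3.68% of all genes tested, and 0 of 10 were called higher by edgeR, against 0.826% (also 0 at an unadjusted p under 0.05, and 0 called higher by DESeq2 and limma-voom). At an adjusted p of 0.05 with no limit on fold, 4 of 10 were lower, where 7.31% of all genes were, and 0 were higher by edgeR, where 3.48% were. In the same 4, every knockout library lay below every wild type library, as it did for 9.7% of all genes, and in 0 factors did every knockout lie above, as for 6.16% of all genes. The fold change was below 0 for 8 of 10, against 46.9% of all genes. The median log2 fold change of the 10 was -0.66 and that of all genes tested was 0.032.

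**Figure D1:**
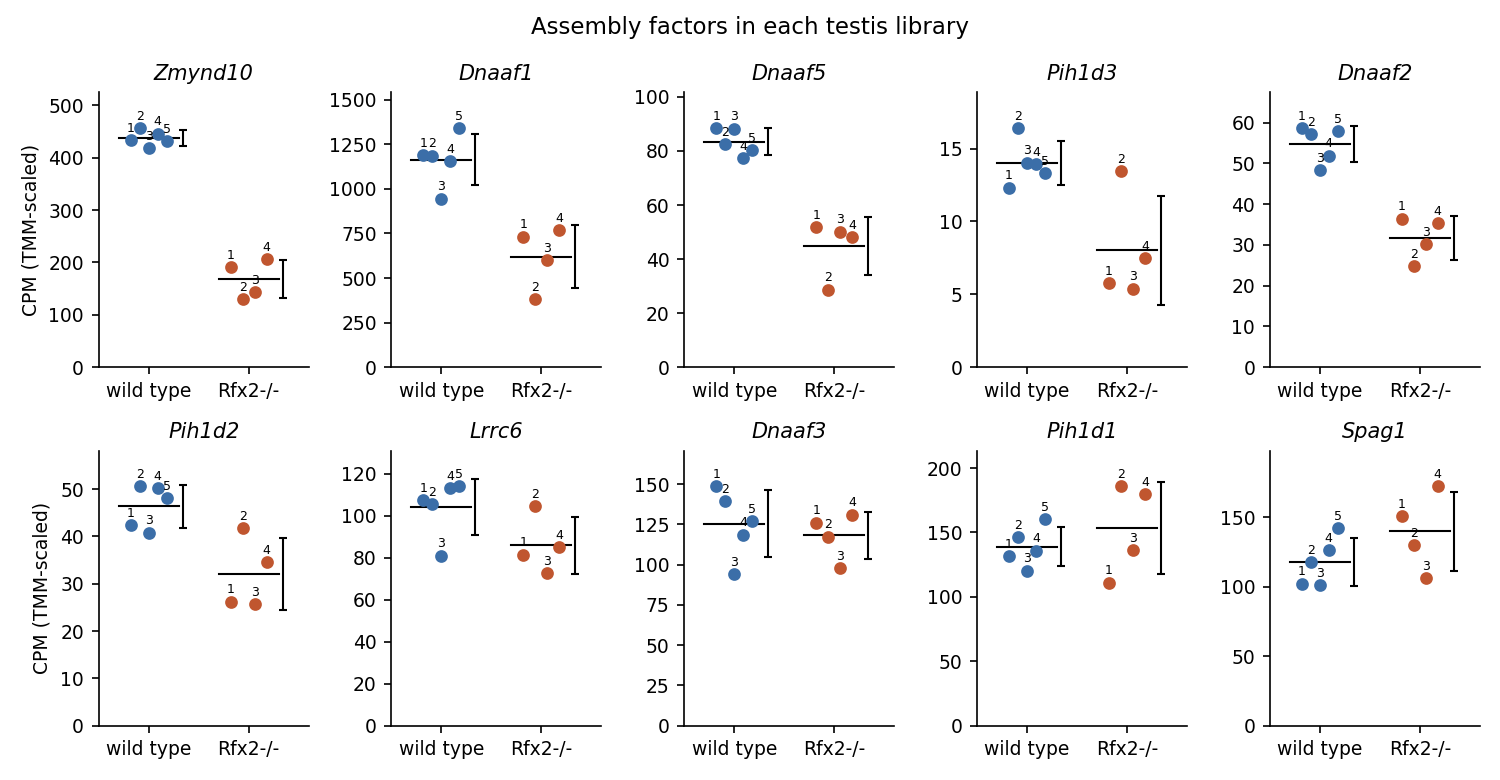
CPM of each assembly factor in each library (vertical axes from 0, 1 panel a gene, ordered by fold change). Points are libraries with their replicate numbers, horizontal bars are means and the error bars beside them SD, for 5 wild type and 4 Rfx2-/- mice. The groups are apart for Zmynd10, Dnaaf1, Dnaaf5 and Dnaaf2, while Rfx2-/- replicate 2 sits with the wild type libraries for Pih1d3.

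Promoter sequence was read for the 7 factors with an entry in the RefSeq promoter table (GRCm38.p6, 250 bases before to 50 after the gene start): Dnaaf2, Dnaaf3, Dnaaf5, Pih1d1, Pih1d2, Pih1d3 and Zmynd10. Each was compared with the X-box, the inverted repeat that RFX proteins bind, taken as the half-site GTTGCCA followed by its reverse complement TGGCAAC. This motif of 14 letters is its own reverse complement, so both strands are searched at once, and overlapping windows were all scored. The best window of each promoter is shown in capitals with up to 20 bases on each side, because all but Pih1d1 of these are on the study's list of genes with RFX2 bound at the promoter while their counts moved unequally. The sequences run 5′ to 3′ on the gene's strand, in order of the number of matching letters.
Zmynd10: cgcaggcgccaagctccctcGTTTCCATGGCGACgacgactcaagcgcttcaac
Dnaaf2: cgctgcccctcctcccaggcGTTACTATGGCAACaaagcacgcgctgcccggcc
Pih1d3: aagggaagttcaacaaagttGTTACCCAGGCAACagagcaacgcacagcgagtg
Dnaaf5: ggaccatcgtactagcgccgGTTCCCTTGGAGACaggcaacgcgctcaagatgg
Dnaaf3: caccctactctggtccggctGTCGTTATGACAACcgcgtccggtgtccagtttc
Pih1d2: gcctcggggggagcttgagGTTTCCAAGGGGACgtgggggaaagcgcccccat
Pih1d1: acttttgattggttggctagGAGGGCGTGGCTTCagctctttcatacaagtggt

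The window of Zmynd10 (chr9:107547284-107547337, plus strand) and that of Dnaaf2 (chr12:69198413-69198466, minus strand) each matched 12 of 14 letters, a number that 1.2% of the 32851 promoters searched reach or exceed. In Zmynd10 the capitals begin at the start base itself, and in Dnaaf2 they end 4 bases before it. Pih1d3 (chr1:31222760-31222813, plus strand) matched 11 letters, reached by 3.37% of promoters. Dnaaf5 (chr5:139150197-139150250, plus strand), Dnaaf3 (chr7:4532595-4532648, minus strand) and Pih1d2 (chr9:50617071-50617123, plus strand) matched 10, reached by 12.2%. Both promoters listed for Pih1d1 matched 8, reached by 95%, and the window of the downstream one is shown (chr7:45155756-45155809, plus strand). Of 917 promoters of genes on the study's list of bound genes, 14.1% reach 12 letters, 29.1% reach 11 and 46.3% reach 10. A match is a description of letters, not a measured site. By list membership alone, 9 of the 10 factors had an RFX2 ChIP-seq peak at the promoter in germ cells of younger wild type mice, and Pih1d1 had none. The list holds 977 of the 23074 genes counted and 953 of the 15613 tested. Of the 953 listed genes that were tested, 11.1% were called lower here and 22.8% were lower at an adjusted p of 0.05. The 9 with a peak include Zmynd10, Dnaaf1, Dnaaf5 and Dnaaf2, which fell, and also Dnaaf3, Lrrc6, Spag1, Pih1d2 and Pih1d3, which did not pass the test.

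ZMYND10 and LRRC6 bind each other, and both are needed for outer and inner arms. Zmynd10 encodes a MYND zinc-finger protein (chr9:107547298-107551319, plus strand, 1.765 kb of exon; gene positions here and below are GRCm38, GENCODE M21). Its wild type libraries held 434, 457, 418, 446 and 432 CPM and the knockouts 190.4, 130.2, 143 and 206 CPM. The coefficient of variation of the wild type values was 3.36%, the lowest of the 10 genes, and the highest knockout reached less than the lowest wild type. The log2 fold change was -1.38 ± 0.16 (SE; 95% interval -1.74 to -1.03; edgeR adjusted p = 1.22e-04), and it ranged from -1.47 to -1.26 over 18 alternative analyses, in all of which Zmynd10 was called lower.

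Lrrc6 encodes a leucine-rich repeat protein (chr15:66379858-66500910, minus strand, 2.084 kb). Its wild type libraries held 107, 105, 81.0, 113 and 114 CPM and the knockouts 81.4, 105, 72.6 and 85.1 CPM. The groups overlapped, with wild type replicate 3 at the level of the knockouts and Rfx2-/- replicate 2 at the level of the wild types. The log2 fold change was -0.28 ± 0.15 (95% interval -0.61 to 0.06, adjusted p = 0.256). It was -0.39 without Rfx2-/- replicate 2 (edgeR adjusted p = 0.0559) and -0.17 without Rfx2-/- replicate 3 (edgeR adjusted p = 0.509). With the trend of counts on gene length removed it was -0.36 (edgeR adjusted p = 0.0714). The ratio of Zmynd10 to Lrrc6 counts within a library does not depend on scaling. Its mean log2 was 2.08 ± 0.18 (SD, n = 5) in wild type and 0.95 ± 0.44 (SD, n = 4) in Rfx2-/-, with no overlap. The difference of -1.13 had an exact two-sided permutation p = 0.0159, the smallest that 126 assignments of 5 against 4 libraries allow. After Benjamini-Hochberg adjustment over 3 ratios it was 0.0238. All 3 ratios were chosen with earlier results of these data known, so their p-values are not those of tests set in advance. The difference ranged from -1.24 to -0.92 when single libraries were left out.

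Dnaaf1, a leucine-rich repeat protein needed for the stability of both kinds of arm, lies on chr8:119575235-119598454 (plus strand, 2.821 kb). It was the most abundant factor, at 1189.5, 1186.5, 944, 1157.0 and 1342.5 CPM in wild type and 732, 380.1, 599 and 768 CPM in Rfx2-/-. All knockouts lay below all wild types, and replicate 2 was the lowest of them. The knockout mean was 53.2% of wild type and 60.1% without replicate 2 (log2 fold change -0.91 ± 0.21, adjusted p = 0.0141, and -0.73, adjusted p = 0.0023, without it).

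Dnaaf5 encodes a HEAT-repeat protein, formerly Heatr2 (chr5:139150223-139186510, plus strand, 3.45 kb). Wild type held 88.5, 82.5, 88.3, 77.4 and 80.3 CPM, and the knockouts held 51.9, 28.7, 50.2 and 48.2 CPM. The groups were apart, and 3 knockouts lay close together with replicate 2 well below them. The log2 fold change was -0.90 ± 0.17 (adjusted p = 0.00501), or -0.73 (adjusted p = 1.38e-04) without replicate 2. Dnaaf3, whose protein acts in assembly of both arm types, lies on chr7:4522933-4532453 (minus strand, 2.224 kb). It held 149, 139, 94.1, 119 and 127 CPM in wild type and 126, 117, 98.0 and 131 CPM in Rfx2-/-. The knockouts fell inside the wild type range. Its log2 fold change of -0.09 ± 0.16 (95% interval -0.43 to 0.26, adjusted p = 0.750) had no stable sign, as it was 0.048 when libraries were scaled by total counts, which moved the median of all genes by 0.13, and 0.029 without Rfx2-/- replicate 3.

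The 4 PIH domain genes behaved unequally. PIH proteins pass client proteins to HSP90. Dnaaf2, also known as Ktu, was the first of them tied to dynein assembly (chr12:69189087-69198429, minus strand, 3.39 kb). Its wild type libraries held 58.7, 57.2, 48.4, 51.9 and 57.9 CPM and its knockouts 36.5, 24.7, 30.2 and 35.3 CPM. The groups were apart, and the mean fell to 57.8% of wild type (log2 fold change -0.79 ± 0.14, adjusted p = 0.00359), or to 62.0% without replicate 2.

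Pih1d3, a factor known from mice to be needed for dynein assembly in the sperm flagellum, is a gene of 1 exon (chr1:31222838-31224288, plus strand, 1.451 kb). It was the scarcest factor, with 79 to 212 reads a library. Wild type held 12.3, 16.4, 14.03, 13.9 and 13.3 CPM, and the knockouts held 5.75, 13.4, 5.38 and 7.46 CPM. Rfx2-/- replicate 2 lay within the wild type range, while the other 3 knockouts were all below it. The log2 fold change was -0.81 ± 0.25 and did not pass with all libraries (adjusted p = 0.0615). Without replicate 2 it was -1.18 with an adjusted p of 1.42e-04, a call in an analysis where 4.01% of genes were called lower, and with the trend of counts on gene length removed it was -1.02 (adjusted p = 0.00174), also a call. Without Rfx2-/- replicate 1 or 3 it was -0.64 (adjusted p = 0.103) or -0.63 (adjusted p = 0.142), and with total counts -0.68 (adjusted p = 0.0979).

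Pih1d2, a partner of SPAG1, lies on chr9:50617321-50625000 (plus strand, 1.885 kb). It held 42.4, 50.6, 40.8, 50.2 and 48.0 CPM in wild type and 26.2, 41.8, 25.6 and 34.5 CPM in Rfx2-/-. Only replicate 2 overlapped the wild types. The log2 fold change was -0.54 ± 0.17 (adjusted p = 0.0617), and -0.69 (adjusted p = 0.00248) without replicate 2. Pih1d1 is the PIH subunit of the R2TP complex, which also serves clients other than dynein in most cell types (chr7:45154303-45160065, plus strand, 1.79 kb). It held 132, 147, 120.3, 136 and 160.2 CPM in wild type and 111, 186, 136 and 179.5 CPM in Rfx2-/-, with knockouts on both sides of the wild type range. Its log2 fold change was 0.14 ± 0.17 (95% interval -0.23 to 0.51, adjusted p = 0.623). The ratio of Pih1d3 to Dnaaf2 had a mean log2 of -1.97 ± 0.21 (SD, n = 5) in wild type and -2.06 ± 0.81 (SD, n = 4) in Rfx2-/-, a difference of -0.10 by an exact permutation test with p = 0.905 before and after adjustment. Leaving out single libraries moved that difference from -0.49 (without Rfx2-/- replicate 2) to 0.10 (without Rfx2-/- replicate 1).

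Spag1 encodes a tetratricopeptide protein that joins PIH1D2 and the RUVBL ATPases in an R2TP-like complex (chr15:36178099-36235621, plus strand, 4.33 kb). It held 102, 118, 101, 126 and 142 CPM in wild type and 151, 129.9, 106 and 172 CPM in Rfx2-/-. The groups overlapped, and the log2 fold change was 0.25 ± 0.17 (95% interval -0.12 to 0.61, adjusted p = 0.359). Within libraries, however, the balance of Spag1 to its partner Pih1d2 differed. The log2 ratio was 1.27, 1.22, 1.31, 1.33 and 1.56 in wild type and 2.52, 1.63, 2.05 and 2.32 in Rfx2-/-, so that every knockout was above every wild type. The difference of 0.79 had an exact two-sided permutation p = 0.0159 (adjusted 0.0238), again the smallest possible, and lay between 0.66 and 0.96 when single libraries were left out. Spag1 has 4.33 kb of exon and Pih1d2 1.885 kb, so the length trend of a library enters this ratio. Among the knockouts, replicate 1 had the highest ratio and replicate 2 the lowest. No ratio with the trend removed was run, and the part of length in the difference was not tested. In the edgeR fit with the trend removed, the log2 fold changes were 0.31 for Spag1 and -0.65 for Pih1d2.

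**Figure D2:**
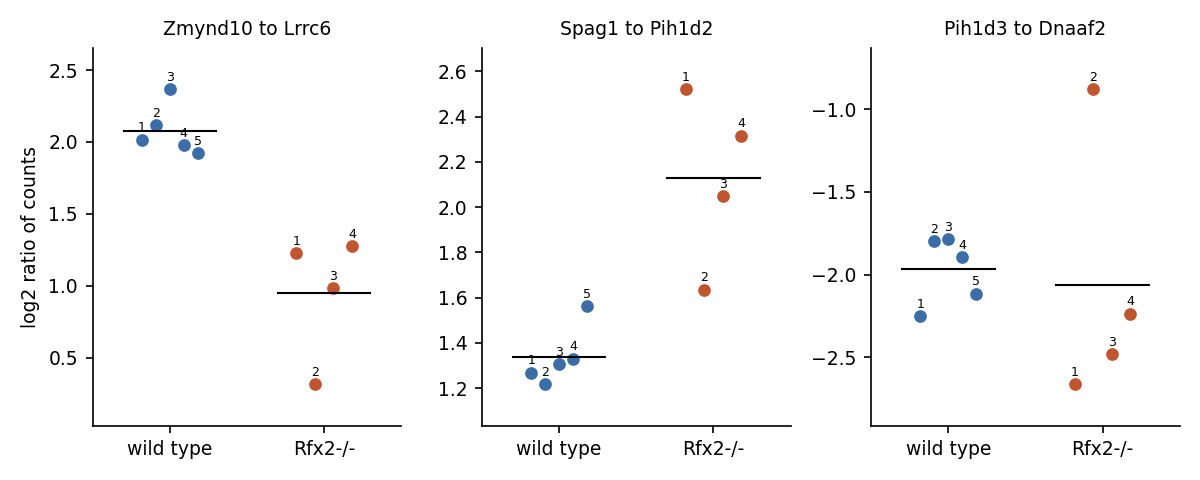
Log2 ratio of the counts of 2 factors within each library, for Zmynd10 to Lrrc6, Spag1 to Pih1d2 and Pih1d3 to Dnaaf2. Points are libraries with their replicate numbers, bars are means, and each panel has its own vertical scale. The groups are apart in the first and second panels, and in the third Rfx2-/- replicate 2 lies above every other library.

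Rfx2-/- replicate 2 was the lowest knockout for 4 factors (Zmynd10, Dnaaf1, Dnaaf2 and Dnaaf5) and the highest for 4 others (Pih1d1, Pih1d2, Pih1d3 and Lrrc6). Its log2 ratio to the mean of the other knockouts ran from 1.12 for Pih1d3, the shortest gene, to -0.88 for Dnaaf1 and -0.80 for Dnaaf5. Over the 10 genes the Spearman correlation of this ratio with exon length was -0.564, as a description of 1 library against the other knockouts. Zmynd10 did not follow length: at 1.765 kb it is the second shortest and replicate 2 was still the lowest, with a log2 ratio of -0.47. Without replicate 2, 6 of 10 factors were lower at an adjusted p of 0.05, where 9.77% of all genes tested were.

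**Figure D3:**
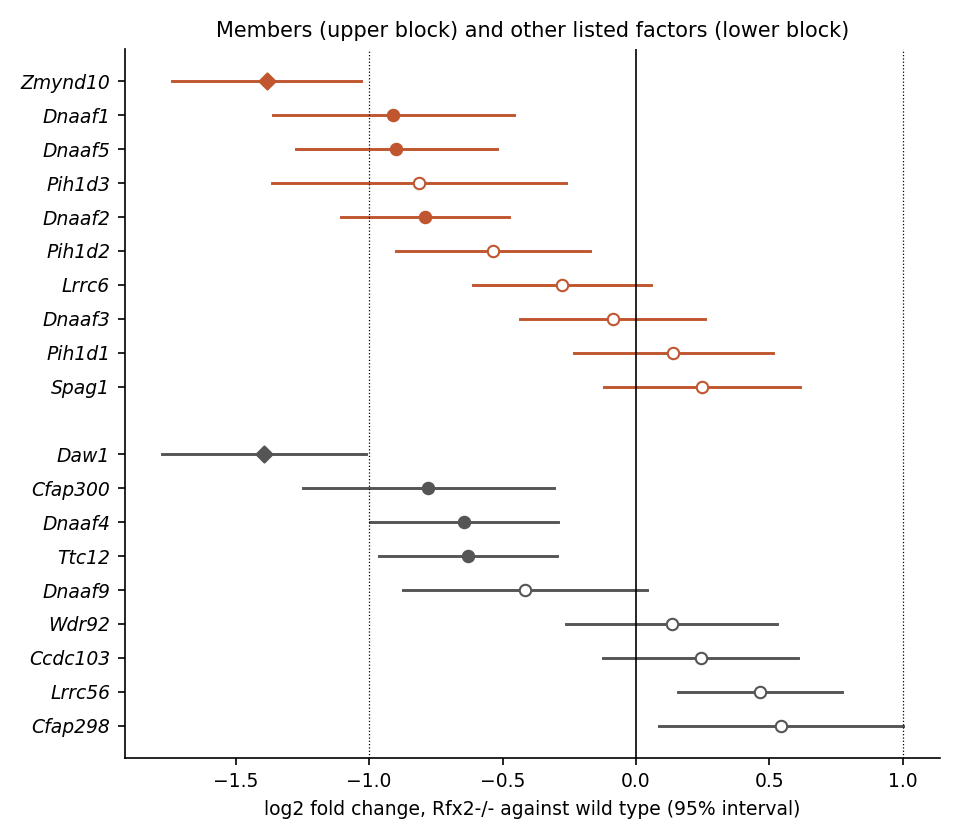
Log2 fold change of Rfx2-/- against wild type with 95% intervals from edgeR, for the 10 assembly factors (upper block) and the 9 other factors listed (lower block). Filled symbols have an adjusted p at or under 0.05, diamonds are called, and dotted lines mark a 2-fold change. Zmynd10 and Daw1 are the called genes, at -1.38 and -1.39.

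Set per length, as scaled CPM per kb of exon (RPKM), the wild type levels spanned 413 ± 50.5 (SD, n = 5) for Dnaaf1 to 9.65 ± 1.04 for Pih1d3. Zmynd10 came second at 248 ± 8.33 RPKM, followed by Pih1d1 at 77.6, Dnaaf3 at 56.4, Lrrc6 at 50, Spag1 at 27.2, Pih1d2 at 24.6, Dnaaf5 at 24.2 and Dnaaf2 at 16.2 RPKM. Neighbours in this order had separate ranges except Dnaaf3 and Lrrc6, Spag1 and Pih1d2, and Pih1d2 and Dnaaf5. The exon lengths include bases shared with other genes, although the study left out reads that touched such bases. In Dnaaf2 these are 1107 bases of 3.39 kb, shared with 9330151L19Rik. No correction was made, so the place of Dnaaf2 below Dnaaf5 and Pih1d2 is not settled. The order of the means was the same in Rfx2-/-, but Zmynd10, at 94.95 ± 20.7 RPKM (SD, n = 4), was then close to Pih1d1 at 85.5 ± 19.9.

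**Figure D4:**
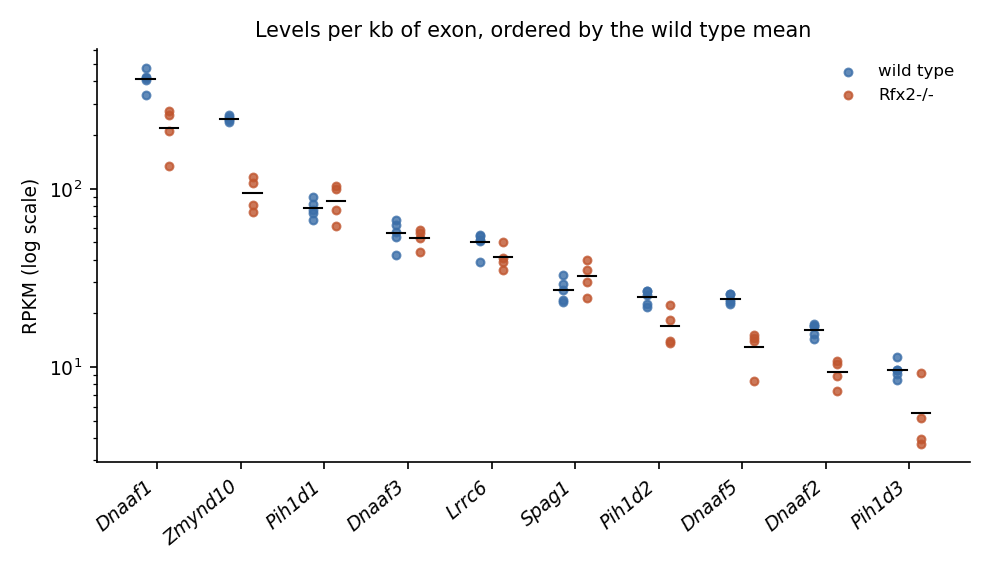
RPKM of each assembly factor in each library (log axis), ordered by the wild type mean. Blue points are the 5 wild type and orange points the 4 Rfx2-/- libraries, and bars are means. Levels run from 413 RPKM for Dnaaf1 to 9.65 for Pih1d3 in wild type, and Zmynd10 in Rfx2-/- comes down to the level of Pih1d1.

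Among 9 other factors listed for dynein assembly or delivery, 1 was called lower and 0 higher by edgeR, DESeq2 and limma-voom. Of all genes tested, edgeR called 3.68% lower and 0.826% higher. At an unadjusted p under 0.05, 4 of the 9 factors were lower and 2 higher, and their median log2 fold change was -0.42. The called gene was Daw1, which encodes a WD-repeat protein needed to bring outer arms into the axoneme. It held 35.9, 33.2, 37.1, 38.1 and 32.3 CPM in wild type and 12.9, 18.5, 10.02 and 12.4 CPM in Rfx2-/- (log2 fold change -1.39 ± 0.18, adjusted p = 2.15e-04). The groups were well apart. The other 3 at an adjusted p of 0.05, named after their values were seen, were Cfap300 (log2 fold change -0.78, adjusted p = 0.0376), Dnaaf4 (-0.65, 0.0236) and Ttc12 (-0.63, 0.0196). Dnaaf4, formerly Dyx1c1, encodes a chaperone adaptor that binds DNAAF2. These 3 passes were not stable. The adjusted p of Cfap300 was between 0.0589 and 0.105 when any library but Rfx2-/- replicate 2 was left out and 0.0653 with total counts, while the gene was called lower (-1.06, adjusted p = 9.59e-05) without replicate 2. That of Dnaaf4 was 0.0633 with total counts and between 0.0561 and 0.0689 without wild type replicate 2, 3, 4 or 5 or Rfx2-/- replicate 3 or 4. That of Ttc12 was between 0.0575 and 0.0718 without wild type replicate 4 or 5 or Rfx2-/- replicate 3. Lrrc56, also named after its value was seen, lay higher in every knockout than in any wild type library (log2 fold change 0.47) but did not pass by edgeR with all libraries (adjusted p = 0.0555). Its adjusted p was 0.00924 with DESeq2, 0.00747 with total counts, 0.0384 with the length trend removed, and 0.0113 and 0.0447 without Rfx2-/- replicate 2 and replicate 3.

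The general chaperone machinery showed no call. Of 10 R2TP and HSP90 genes, 0 were called by edgeR, DESeq2 or limma-voom (at an unadjusted p under 0.05, 1 was lower and 1 higher), with a median of 0.12. Those with the lowest p were Ruvbl1, an ATPase of R2TP, at a log2 fold change of -0.30 (adjusted p = 0.163), and Stip1, which links HSP70 and HSP90, at 0.25 (adjusted p = 0.175). The adjusted p of Stip1 was 0.0340 with DESeq2 and 0.0401 with total counts. Another list held 10 genes of the prefoldin-like module and the TTT complex, which work with R2TP, or linked to them. Of these 10, 0 were called by these tools (0 lower and 4 higher at an unadjusted p under 0.05), with a median of 0.29. Pdrg1 had the lowest p (0.65, adjusted p = 0.0755), followed by Nop58, a box C/D snoRNP protein and R2TP client (0.48, adjusted p = 0.101). Without Rfx2-/- replicate 2 these fold changes were 0.33 (adjusted p = 0.0639) and 0.26 (adjusted p = 0.106). Both genes passed an adjusted p of 0.05 with total counts (0.0403 and 0.0388) and without Rfx2-/- replicate 1 (0.0235 and 0.0402). Pdrg1 also passed with DESeq2 (0.0448) and with the length trend removed (0.0475). The clients are the dynein chains. Of 14 axonemal heavy chains tested, 2 were called lower and 0 higher in the main analysis, against 3.68% and 0.826% of all genes tested. The median of the 14 was -0.65. The called genes were Dnah10 (log2 fold change -4.11 ± 0.41) and Dnah6 (-2.55 ± 0.42), both inner arm chains. The heavy chains have 12.0 to 17.6 kb of exon, in the length class where Rfx2-/- replicate 2 lay below the other knockouts. Without replicate 2 Dnah10 was at -3.80 and Dnah6 at -2.25, both still called. The part of length in the median was not tested. Dnah6 was not called without Rfx2-/- replicate 4 (-2.36, adjusted p = 0.0108). Dnah9, named after its value was seen, was higher at 0.70 (adjusted p = 0.028), short of 2-fold, and its adjusted p reached 0.0780 when single libraries were left out. With the length trend removed it was 1.01 (adjusted p = 0.00299), a call. Without Rfx2-/- replicate 2 it was 0.83 (adjusted p = 0.00143). Of 8 intermediate and light chains, 3 were called lower and 0 higher, against the same shares of all genes, with a median of -0.46. These were Dnaic2, an outer arm intermediate chain, which stood at 113 ± 18.3 CPM (SD, n = 5) and 1.04 ± 0.30 CPM (SD, n = 4), and Dnali1 (-1.66 ± 0.15) and Wdr78 (-1.49 ± 0.24) of the inner arms.

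**Figure D5:**
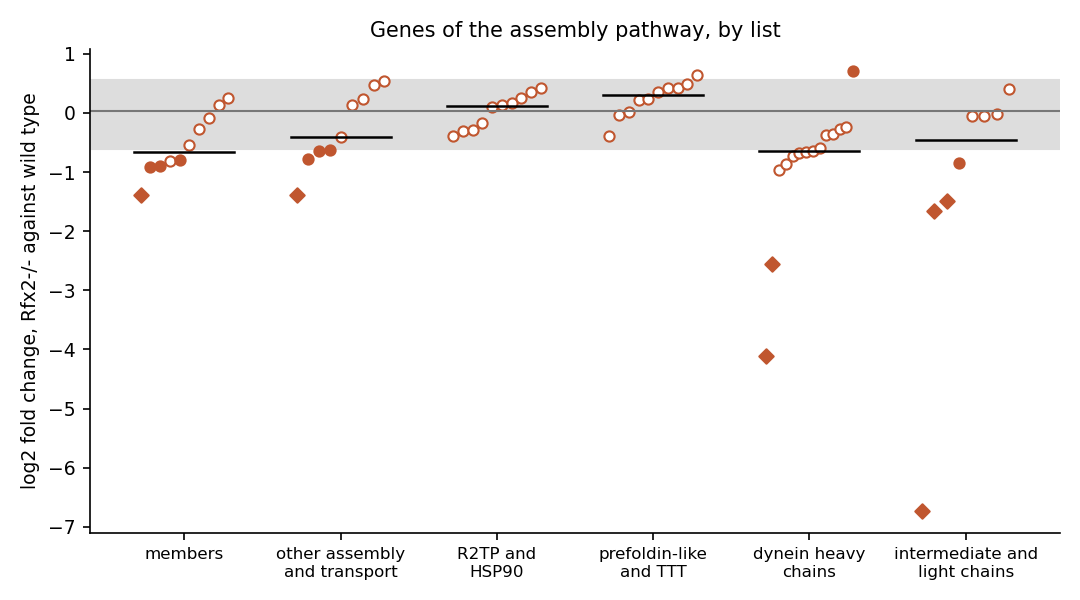
Log2 fold change of Rfx2-/- against wild type for each gene of the assembly factors, of the other listed factors, of 2 chaperone lists and of 2 lists of axonemal dynein chains. Filled symbols have an adjusted p at or under 0.05, diamonds are called, short bars are list medians, and the grey band spans the 10th to 90th percentile of all genes tested (-0.616 to 0.561). Called genes appear among the factors and dynein chains, and none in either chaperone list.

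Several factors share ground with another gene. 9330151L19Rik, a noncoding gene on the opposite strand, overlaps 1107 exon bases of Dnaaf2 and moved the other way, from 6.97 ± 0.43 CPM (SD, n = 5) to 12.7 ± 1.83 CPM (SD, n = 4), with no overlap between groups (log2 fold change 0.86, adjusted p = 0.00251, short of 2-fold). Tnni3, which overlaps 86 exon bases of Dnaaf3 on the same strand, rose as well (0.68, adjusted p = 0.00611, short of 2-fold). The study left out reads that touched exons of more than 1 gene, and the library kit does not mark strand. Taf1c overlaps 480 exon bases of Dnaaf1 and had a log2 fold change of -0.15 (adjusted p = 0.549). Of the stretches of 50 bases in the coding transcripts of Dnaaf2, 68.1% also occur on either strand in transcripts of other genes, 9330151L19Rik sharing the largest number. The share was 19.3% for Dnaaf1, all with Taf1c, 10.2% for Dnaaf3 with Gm15873 and Tnni3, 9.77% for Dnaaf5 with many genes, and at most 5.31% for each of the other 6 factors. Among genes that start within 1 kb of a factor on the other strand, 4931428L18Rik, whose start is 154 bases from that of Pih1d3, was lower in every knockout (8.05 to 5.09 CPM, log2 fold change -0.66, adjusted p = 0.0416). That pass was lost with total counts (adjusted p = 0.0894), with no low-count filter (0.0563) and on leaving out any library but Rfx2-/- replicate 2 (0.0799 to 0.113). Hsdl1, which starts 52 bases from Dnaaf1, also did not overlap between groups but did not pass (-0.32, adjusted p = 0.221, and -0.17, adjusted p = 0.298, without Rfx2-/- replicate 2). Prkar1b beside Dnaaf5 (-0.05, adjusted p = 0.886), Aldh16a1 beside Pih1d1 (0.07, adjusted p = 0.802) and Nkapd1 beside Pih1d2 (0.13, adjusted p = 0.635) did not pass, and the sign of each turned under at least 1 alternative.

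The genes most like Zmynd10 across the 9 libraries, by Pearson correlation of log2 CPM among 10048 genes with a mean of at least 10 CPM, were Katnal1 (r = 0.991), Ccdc40 (0.989), Dnali1 (0.989), Arhgef10l (0.988) and 4930519G04Rik (0.988). Libraries of both genotypes enter this description, so any gene with a large and even difference between them scores high. Their own log2 fold changes were -1.70, -3.86, -1.66, -1.81 and -0.97, and all but 4930519G04Rik were called lower. Katnal1 encodes a microtubule-severing subunit, and Ccdc40 sets the spacing of dynein arms along the axoneme. Among the assembly factors the same r was 0.9751 for Dnaaf2, 0.935 for Dnaaf1, 0.934 for Dnaaf5, 0.732 for Pih1d2 and 0.684 for Pih1d3. It was 0.551 for Lrrc6, 0.302 for Dnaaf3, -0.282 for Pih1d1 and -0.298 for Spag1.

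The levels of cell type markers in the same libraries were as follows. The 11 markers listed for elongating spermatids summed to between 8702.5 and 18507 CPM in wild type and between 6936.5 and 11249 CPM in Rfx2-/-. Of these, 11 had log2 fold changes below 0, 5 were lower at an adjusted p of 0.05, and 0 were called by edgeR or limma-voom (8 lower at an unadjusted p under 0.05), while DESeq2 called 3 lower (Tnp1, Prm1 and Prm2). Akap4 at -0.82 (adjusted p = 0.00988) and Prm1 at -1.21 (adjusted p = 0.0156) had the lowest p by edgeR. The study saw no spermatids past the round stage in the knockout. It describes Tnp1 and Tnp2 mRNAs as already there when that stage ends, so the sums of this list do not count elongating cells. By its own analysis these 2 mRNAs were not reduced in the knockout. Here Tnp1 was at -1.12 (edgeR adjusted p = 0.0416) and Tnp2 at -0.77 (edgeR adjusted p = 0.0927). The 7 meiotic prophase markers summed to between 1041.4 and 1447.3 CPM in wild type and between 1514.8 and 2900.8 CPM in Rfx2-/-, the highest being replicate 2, and 2 of 7 were higher at an adjusted p of 0.05. Round spermatid markers summed to between 735 and 969.9 CPM and between 922 and 1220.1 CPM, with 0 of 6 past that limit by edgeR (3 higher at an unadjusted p under 0.05). Markers of the rete testis and efferent ducts, the latter lined by cells with motile cilia, summed to between 4.36 and 5.85 CPM in wild type and between 2.09 and 7.09 CPM in Rfx2-/-, and Pax8, Krt7 and Krt19 of that list were below the filter. The summed markers of the other 6 lists (spermatogonia, late spermatocytes, Sertoli, Leydig and peritubular cells, and macrophages) overlapped between the groups, and of their 35 genes 0 were called by edgeR, DESeq2 or limma-voom (at an unadjusted p under 0.05, 1 was lower and 6 higher), with Amh of the Sertoli cells the single gene at an adjusted p of 0.05 (log2 fold change 0.92, adjusted p = 0.0145). No list held a marker at 0 in every library. At an adjusted p of 0.05 by edgeR, 7.31% of all genes tested were lower and 3.48% higher. The part of these marker levels in the values of the assembly factors was not tested.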

How the data were processed

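The study sequenced testis RNA of 5 wild type and 4 Rfx2-/- mice, in 1 library each. The deposited table holds raw counts per gene: the authors mapped single reads to GRCm38, discarded reads with several locations, and counted reads in merged exons, leaving out those in exons of more than 1 gene. The submitters' processing notes name CASAVA 1.8.2, STAR 2.4 and featureCounts 1.4.6, while another passage of the study's methods names Bowtie and a shorter read. The strand setting used in counting reads is not stated. The authors tested with DESeq.

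Here counts were filtered (filterByExpr), scaled by TMM and tested with edgeR 4.0.16 (quasi-likelihood, robust, R 4.3.3), with Benjamini-Hochberg adjustment over 15613 genes. A call needed an adjusted p at or under 0.01 and a change over 2-fold, which are the study's limits applied here to an adjusted p. Of the 23074 gene IDs, 96.6% were found in GENCODE M21. Ratios of counts plus 0.5 were compared by exact permutation (SciPy 1.17.1). Alternatives were DESeq2 1.42.0, limma-voom (limma 3.58.1), other scalings and filters, a looser call rule, removal of a gene length trend, thinning of the deepest library, and leaving out each library. The fit was checked on simulated counts. Libraries of a genotype differed by at least 4.32 in chi-square per gene, so all were kept as separate replicates. The p-values set the difference between genotypes against the spread between libraries of a genotype. With 1 library from each mouse, spread between mice and spread between library preparations cannot be told apart.

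The factors, lists and ratios were chosen with earlier results of these data known. Genes named are the 10 factors, Rfx2, from each pathway list the called genes (at most 4 by size of change, or the 2 with the lowest p where none was called), genes overlapping a factor or starting within 1 kb of it on the other strand, and the 5 genes most like Zmynd10; others are said to be named after their values were seen. Of the marker lists, described by sums and counts, the elongating spermatid list has its 2 genes of lowest p named. Tnp1, Tnp2, Prm2 and Amh were named after their values were seen. Replicates are numbered in accession order.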

Additional observations from a re-analysis of the deposited data

Results flagged for a closer look

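In 2 of 28 groups of values examined, 1 library lay far from the rest (its gap to the nearest was over Dixon's 95% limit of the group's range); chance gives about 1.4. Dnaaf5 in Rfx2-/- replicate 2 stood at 28.7 CPM, with the other knockouts between 48.2 and 51.9 CPM. Lrrc6 in wild type replicate 3 stood at 81.0 CPM, with the other wild types between 105 and 114 CPM. Why these libraries stood apart was not tested.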

How the results depend on the processing

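Zmynd10 and Rfx2 were called lower, and no factor was called higher, under each of the 18 alternatives run. Beside 1 factor called lower in the main analysis, 4 were with an adjusted p of 0.05 and no limit on fold (Dnaaf1, Dnaaf2, Dnaaf5 and Zmynd10), which the rule itself widens, and 2 (Zmynd10 and Pih1d3) with the length trend removed or without Rfx2-/- replicate 2. Leaving out single libraries gave 1 to 2. DESeq2 put Pih1d2 and Pih1d3 past an adjusted p of 0.05, and limma-voom Pih1d3. Over all genes, 575 were called lower and 129 higher, against 1142 and 544 with the looser rule, 211 higher with DESeq2, and 447 to 632 lower and 92 to 175 higher when single libraries were left out. Signs turned for 4 genes. Dnaaf3 gave 0.048 with total counts and -0.13 to 0.029 when single libraries were left out, and Prkar1b 0.094 and -0.16 to 0.088. Leaving out single libraries gave -0.063 to 0.18 for Aldh16a1 and -0.019 to 0.26 for Nkapd1, both below 0 without Rfx2-/- replicate 2. The Pih1d3 to Dnaaf2 ratio difference ran from -0.49 to 0.10 when single libraries were left out. The cause of these changes was not tested. No paired analysis was possible because the replicate numbers were given in accession order and the labels' animal numbers are shared by no 2 mice. With 5 against 4 libraries, an exact permutation p cannot go below 0.0159.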
